A study of Mus musculus with 35 samples.

Results

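The circadian clock genes described here are 10 rows of the deposited expression matrix, chosen by name: Per1, Per2, Per3, Cry1, Cry2, Arntl, Npas2, Nr1d1, Nr1d2 and Dbp. All 10 were found among the 14870 genes of the matrix, and all 10 were tested. The RNA came from punches of medial prefrontal cortex (mPFC), sequenced in bulk as 35 libraries. The mice were either wild type (WT) or lacked normal Shank3 (KO), a scaffold protein of excitatory synapses. Each genotype received water as control, antibiotics (abx), acetate, or both agents together (abx_and_acetate). The groups were WT_control (n = 6), KO_control (n = 4), WT_acetate (n = 5), KO_acetate (n = 5), WT_abx (n = 4), KO_abx (n = 3), WT_abx_and_acetate (n = 4) and KO_abx_and_acetate (n = 4), with 20 libraries labelled male and 15 female. The strain, age, doses, exact Shank3 mutation and hour of collection were not given in the sources used here. A library is named by its group and a number in record order. Nothing in the labels says that different libraries are different animals, and the p-values therefore measure only the spread between these samples.

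The clock is a feedback loop of transcription. The activators Arntl (also called Bmal1) and either Clock or its forebrain relative Npas2 pair up on DNA letters called E-boxes and switch on the Per and Cry genes, whose proteins return to block the activators. A second arm runs through Nr1d1 and Nr1d2 (Rev-erb alpha and beta), repressors that are switched on by the activators and in turn hold down Arntl and Npas2. Dbp is an output of the loop, a transcription factor switched on through E-boxes that acts on sites called D-boxes. Over a day the RNA of Dbp and the Nr1d genes peaks before that of Per2 and Cry1, and Arntl and Npas2 peak nearly opposite to Dbp. In cortex Per1 and Per2 are also induced by neuronal activity and by glucocorticoid hormones. A library from a tissue collected at another time of day would therefore differ in these genes together, but the labels hold no clock hour, and nothing below can be tied to one.

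By the GENCODE annotation of GRCm38, which served for positions only, the activators lie on chromosome 7 (Arntl, 113207465 to 113314126, plus strand) and chromosome 1 (Npas2, 39193731 to 39363236, plus strand). Per1 lies on chromosome 11 (69095217 to 69109960, plus strand), Per2 on chromosome 1 (91415982 to 91459324, minus strand) and Per3 on chromosome 4 (151003652 to 151044665, minus strand). Cry1 lies on chromosome 10 (85131700 to 85185064, minus strand) and Cry2 on chromosome 2 (92403646 to 92434043, minus strand). Nr1d1 lies on chromosome 11 (98767932 to 98775333, minus strand), Nr1d2 on chromosome 14 (18204054 to 18239127, minus strand) and Dbp on chromosome 7 (45705088 to 45710203, plus strand). The deposited values count reads over whole genes.

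The 250 bases before the RefSeq gene start are shown for 3 members that moved together with others below and whose windows hold letters of a clock element; they come from the RefSeq table on GRCm38.p6, 5′ to 3′ on the gene's strand. The capitals in Per3 (chr4:151044666-151044915, minus strand) mark D-boxes, those in Per1 (chr11:69098699-69098948, plus strand) an E-box, and those in Cry1 (chr10:85185055-85185304, minus strand) an E-prime box followed by an E-box.
Per3: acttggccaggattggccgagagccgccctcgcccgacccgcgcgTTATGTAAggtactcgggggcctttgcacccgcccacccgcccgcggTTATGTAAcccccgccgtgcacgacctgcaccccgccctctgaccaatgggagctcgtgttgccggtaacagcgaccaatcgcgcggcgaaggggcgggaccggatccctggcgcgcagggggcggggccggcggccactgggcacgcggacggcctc
Per1: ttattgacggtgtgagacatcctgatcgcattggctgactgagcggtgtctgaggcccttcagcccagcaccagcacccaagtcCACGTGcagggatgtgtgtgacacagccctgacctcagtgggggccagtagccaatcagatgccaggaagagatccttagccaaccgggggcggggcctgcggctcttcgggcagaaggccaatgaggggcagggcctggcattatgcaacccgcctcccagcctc
Cry1: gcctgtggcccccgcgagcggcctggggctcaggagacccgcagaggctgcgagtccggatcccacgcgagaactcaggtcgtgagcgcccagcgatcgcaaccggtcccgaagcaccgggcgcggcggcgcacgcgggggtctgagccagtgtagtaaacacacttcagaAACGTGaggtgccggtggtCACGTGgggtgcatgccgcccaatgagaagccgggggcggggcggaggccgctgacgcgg
Both D-boxes of Per3 read TTATGTAA and start 205 and 158 bases before the gene start. The E-box CACGTG starts 166 bases before the start in Per1 and 60 before it in Cry1, where an E-prime box, AACGTG, starts at 79. RefSeq gives Per1 another start, and the window before it (chr11:69099902-69100151, plus strand) holds none of the elements searched. Both Per1 windows lie inside the GENCODE bounds of the gene given above. E-prime letters also occur at 166 bases before the start of Cry2 and 28 before that of Nr1d1. None of these matches overlap. On both strands CACGTG occurs in 6.02% of the 32851 windows of the table, the E-prime box (CACGTT or its complement) in 3.85%, and the D-box (TTATGTAA or TTACGTAA) in 0.93%. The cyclic AMP element TGACGTCA (1.55% of windows) and the core of the site shared by Nr1d and Ror proteins (TAGGTCA or TGGGTCA, 5.38%) were in none of the 11 windows of the 9 members that matched. Such matches describe letters in a short window and are neither binding sites nor causes.

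The depth was 12.8 to 28.0 M (mega) reads per library, with a median of 21.8 M, and the shallowest library was WT_abx_and_acetate 4. Values are log2 counts scaled to library size (log2 CPM). Shank3 was at 4.07 to 5.11 in KO libraries and 7.48 to 8.85 in those labelled WT, and neuronal markers were high throughout (Snap25 10.95 to 11.52, Slc17a7 10.48 to 11.06). Several libraries stood apart. The libraries labelled WT_abx 4, WT_acetate 2 and WT_acetate 5 had high Acr, the gene beside Shank3 that is high in KO libraries. Their Shank3 values, 7.48, 7.80 and 8.08 in that order, were the lowest of the libraries labelled WT. The Y-linked genes went against the sex label in WT_acetate 2, WT_acetate 4, WT_acetate 5 and WT_abx 3. KO_acetate 1 had a striatal marker score of 2.96, against at most 0.25 in any other library, where a score is the mean deviation of a list's genes from their means over all libraries. WT_abx 4 had the highest scores for choroid plexus (4.16) and meninges (2.18). The log2 folds of the WT comparisons that hold doubted libraries are given with and without them, whereas the correlations, balance, components and rankings below use all 35 libraries unless stated. What part such tissue has in the results was not tested.

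Dbp, the output gene, and Arntl, the activator, varied in opposite directions between libraries. Dbp was at 5.69, 5.65 and 5.53 log2 CPM in the 3 WT_control females and at 6.08, 6.50 and 6.38 in the WT_control males. Arntl ran the other way, at 5.35, 5.48 and 5.65 in those females and at 5.22, 4.95 and 4.84 in those males. Groups this small can separate by chance, and the share of all genes that do so was not counted, here or below. The WT_control sexes did not overlap in either gene. Nor did they overlap in the scores of 3 marker lists: cortical deep layers (-0.75 to -0.34 in females, -0.01 to 0.28 in males), upper layers (0.28 to 0.41 and -0.18 to 0.05) and astrocytes (0.18 to 0.20 and -0.05 to 0.03). The sexes were also apart in a list of immediate early genes, which activity induces (0.79 to 0.99 in females, 0.10 to 0.33 in males). So they were in a list of glucocorticoid-responsive genes (0.14 to 0.23 and -0.09 to 0.02). The part of these lists in the Dbp and Arntl values was not tested. The sample titles of the WT_control females are numbered consecutively, and those of the males lie apart from them. Sex therefore cannot be told apart from the run of titles. In KO_control, Dbp was at 5.73 and 6.31 in the males and 6.14 and 5.72 in the females, and Arntl at 5.23 and 5.10 in the males and 5.27 and 5.45 in the females. In every library of the 2 control groups but WT_control 2 and WT_control 3, Dbp lay at or below 6.31.

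**Figure D1:**
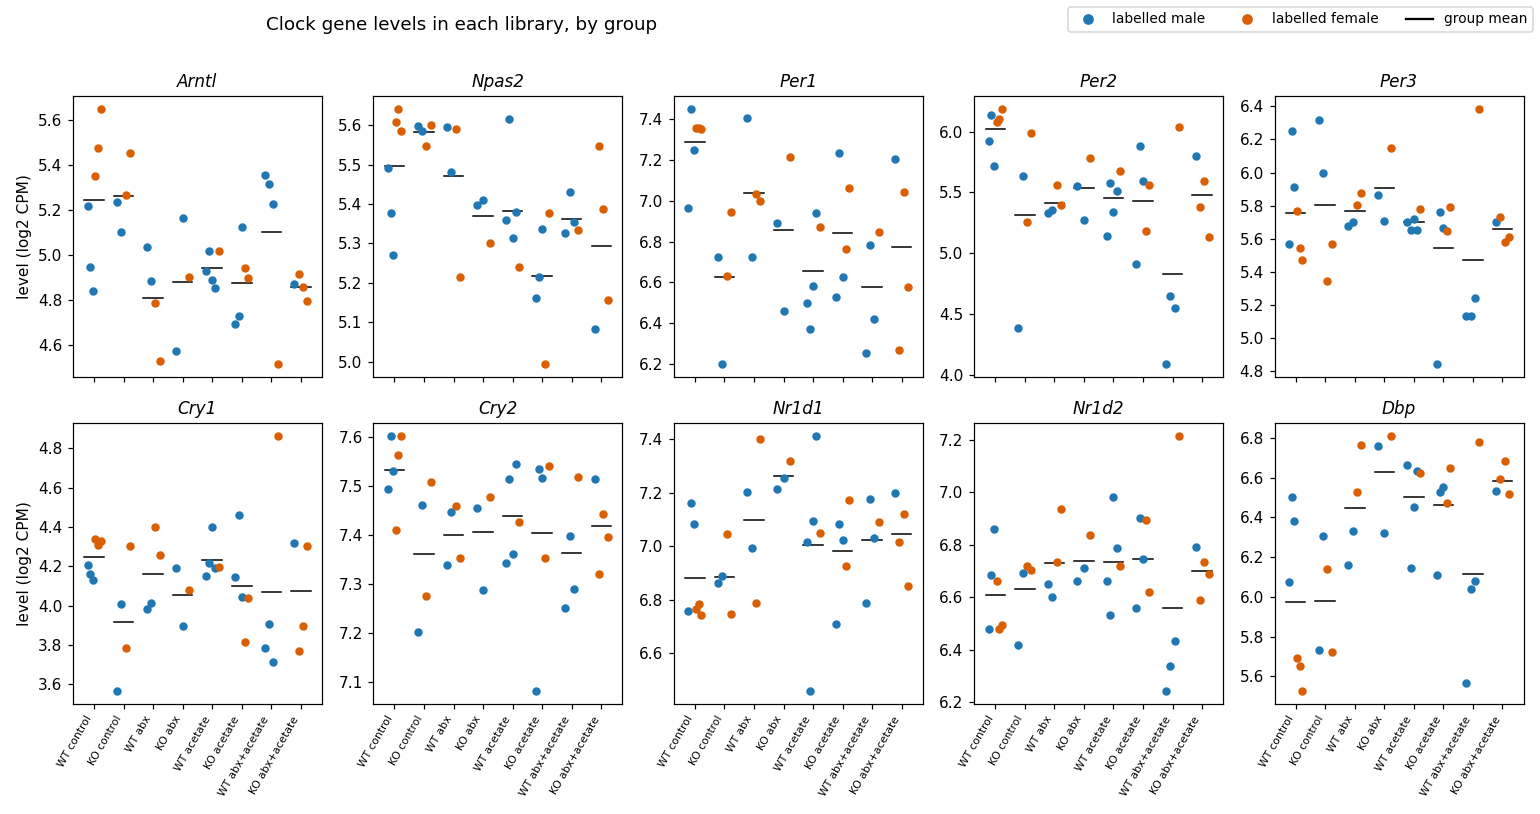
Expression of the 10 clock genes (vertical axis, log2 CPM) in the 8 groups (horizontal axis), 1 panel a gene and 1 point a library, coloured by labelled sex, with a bar at the group mean. In the WT_abx_and_acetate group the single female stands apart from the 3 males in Per2 (6.04 against 4.09 to 4.65), Per3, Cry1, Arntl, Nr1d2 and Dbp.

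Under treatment, every library but WT_abx_and_acetate 1 (5.56) held Dbp above the control median of its genotype, 5.88 in WT and 5.94 in KO. It ran from 6.15 to 6.66 in WT_acetate (median 6.63), 6.11 to 6.65 in KO_acetate (median 6.53) and 6.52 to 6.69 in KO_abx_and_acetate (median 6.56). It was at 6.16, 6.33, 6.53 and 6.76 in WT_abx and at 6.76, 6.32 and 6.81 in KO_abx. Both KO_abx and KO_abx_and_acetate lay wholly above the highest KO_control library, at 6.31. Arntl was at 4.85 to 5.02 in WT_acetate and 4.80 to 4.92 in KO_abx_and_acetate, the latter wholly below the 5.10 to 5.45 of KO_control.

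None of these Dbp or Arntl differences passed the threshold. The test was limma's moderated test in 1 fit of all 35 libraries with 8 group means and labelled sex, adjusted by Benjamini-Hochberg over all 14870 genes. In KO, the log2 fold of Dbp against control was 0.66 ± 0.22 (SE) under abx (adjusted p = 0.999), 0.49 ± 0.20 under acetate (adjusted p = 0.301) and 0.59 ± 0.21 under abx_and_acetate (adjusted p = 0.530). That of Arntl was -0.38 ± 0.17, -0.38 ± 0.15 and -0.41 ± 0.16 in the same order, with limma adjusted p of 0.999, 0.299 and 0.567. Npas2, partner of Arntl, was at 5.55 to 5.60 in KO_control and 4.99 to 5.38 in KO_acetate, with no overlap. Its log2 fold there was -0.37 ± 0.09 (unadjusted p = 0.000506, adjusted p = 0.205 by limma), and -0.29 ± 0.10 under abx_and_acetate (adjusted p = 0.520), where 1 library, KO_abx_and_acetate 2, was at 5.55. Without KO_acetate 1, the library with striatal markers, the acetate values were -0.35 ± 0.10 for Npas2, -0.34 ± 0.16 for Arntl and 0.57 ± 0.20 for Dbp. Nr1d1 had a log2 fold of 0.37 ± 0.15 under abx (adjusted p = 0.999), at 7.21, 7.26 and 7.32 against 6.75 to 7.04 in KO_control. By log2 fold, deep-layer markers were positive in 6, 6 and 7 of 8 under abx, acetate and abx_and_acetate (medians 0.12, 0.47 and 0.33) and upper-layer markers negative in 2, 7 and 7 of 7 (medians 0.04, -0.35 and -0.11). Their part in the clock values was not tested. The 3 comparisons share the KO_control libraries, so they do not bear on each other independently.

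With an unadjusted p under 0.05, abx, acetate and abx_and_acetate each gave 3 of 10 clock genes in KO. The background by the same rule was 3.30%, 13.0% and 7.42% of all genes. Past the adjusted threshold it was 0.0134% under abx and 0% under each of the other treatments, with 0 clock genes in all 3. Under abx_and_acetate set against abx in KO, 0 members had an unadjusted p under 0.05 (background 2.00%) and 0 an adjusted one (background 0%). All 10 log2 folds there lay between -0.28 and 0.00.

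In WT, Dbp had a log2 fold of 0.47 ± 0.19 under abx (adjusted p = 0.411) and 0.55 ± 0.18 under acetate (adjusted p = 0.279), and Arntl of -0.44 ± 0.15 (adjusted p = 0.337) and -0.30 ± 0.14 (adjusted p = 0.510), all by limma. Under abx all 8 deep-layer markers had a positive log2 fold (median 0.44) and all 7 upper-layer markers a negative one (median -0.27), while under acetate 6 of 8 (median 0.07) and 6 of 7 (median 0.04) were positive; their part was not tested. Among females alone, a split chosen after seeing the data, the Dbp value under abx was 1.02 ± 0.12 (limma adjusted p = 0.00621) and that of Arntl -0.83 ± 0.11 (limma adjusted p = 0.00943). Among males alone the Dbp value was -0.07 ± 0.21 and that of Arntl -0.04 ± 0.16. Both female WT_abx libraries are among those in doubt: WT_abx 3 had Y-linked genes against its label, and WT_abx 4 had the high Acr. In the acetate comparison Dbp was at 1.0 ± 0.15 among females (limma adjusted p = 0.0489), on the single library WT_acetate 5, which is doubted on both counts and has no replicate in that fit. The background in the female-only fits was 1.01% of genes under abx and 0.0941% under acetate. Without the 5 doubted libraries and over both sexes, Dbp stood at 0.27 ± 0.25 and Arntl at -0.25 ± 0.20 under abx, and at 0.58 ± 0.25 and -0.30 ± 0.20 under acetate. The difference between the sexes was not tested.

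Per2, a repressor of the loop that activity and hormones can also induce, was the 1 clock gene past the adjusted threshold in any of the 17 comparisons of the fit. It fell in WT_abx_and_acetate against WT_control by 1.12 ± 0.24 on the log2 scale, 2.17-fold lower (limma adjusted p = 0.0288). The WT_control libraries were at 5.92, 6.13, 5.72, 6.08, 6.10 and 6.19. The 3 males of WT_abx_and_acetate were at 4.09, 4.65 and 4.55, below every WT_control library, and the 1 female was at 6.04, within the WT_control range. The background in that comparison was 0.726% of genes past the adjusted threshold, the largest share among the 17 comparisons.

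The Per2 difference rested on the males of the group. The sample titles of these males have lower numbers than that of the female, so sex and title order cannot be told apart there. Without WT_abx_and_acetate 4, the female and also the shallowest library, the log2 fold was -1.52 ± 0.23 (limma adjusted p = 0.000841). Among males alone it was -1.50 ± 0.27 (limma adjusted p = 0.0498, background 0.0874%), and among females alone -0.08 ± 0.24. The call was lost when any 1 of WT_control 1, WT_control 2, WT_control 4, WT_abx_and_acetate 1, WT_abx_and_acetate 2 or WT_abx_and_acetate 3 was left out, with limma adjusted p of 0.0525 to 0.140. It was also lost without the 5 doubted libraries (-1.11 ± 0.26, limma adjusted p = 0.0509), none of which is in these 2 groups, and in a fit of the 2 groups alone (-1.02 ± 0.22, limma adjusted p = 0.0733).

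Dbp, Arntl, Per3 and Nr1d2 in the same WT comparison had opposite signs in the 2 sexes, a difference that was not tested. They are the members past the adjusted threshold in the female-only fit. Cry1 (-0.36 among males, 0.54 among females) and Nr1d1 (-0.0014 and 0.33) also had opposite signs. Per1, Per2, Cry2 and Npas2 were negative in both sexes. The female values compare the 1 library WT_abx_and_acetate 4 with 3 WT_control females in a split made after seeing the data, so they have no replicate check, that library being assumed to vary like the others. Dbp had a log2 fold of -0.43 ± 0.19 among males (limma adjusted p = 0.355) and 1.16 ± 0.15 among females (limma adjusted p = 0.00411). Arntl was at 0.30 ± 0.14 among males (limma adjusted p = 0.376) and -0.98 ± 0.14 among females (limma adjusted p = 0.00579). Per3, which in mice is not needed for the rhythm itself, was at -0.74 ± 0.19 among males (limma adjusted p = 0.156) and 0.79 ± 0.13 among females (limma adjusted p = 0.0123). Nr1d2 was at -0.34 ± 0.12 among males (limma adjusted p = 0.281) and 0.67 ± 0.12 among females (limma adjusted p = 0.0187). In that female-only comparison 3.05% of all genes passed. Over both sexes Dbp stood at 0.16 ± 0.19 and Arntl at -0.14 ± 0.15.

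Per1, the period gene most quickly induced by activity, was at 6.96 to 7.45 in WT_control (median 7.35) and at 6.25, 6.78, 6.42 and 6.85 in WT_abx_and_acetate, with no overlap. Its log2 fold was -0.68 ± 0.18 (limma adjusted p = 0.0579), past the threshold in the fit with no sex term (adjusted p = 0.0417) and in the fit of those 2 groups alone (adjusted p = 0.0374), where the Per2 call was lost. Cry2, a repressor, was at -0.16 ± 0.08 there (adjusted p = 0.330). In WT_acetate, Per1 ran from 6.37 to 6.94, below every WT_control library. Its log2 fold was -0.60 ± 0.17 (adjusted p = 0.215) and that of Per2 -0.48 ± 0.23 (adjusted p = 0.522), both by limma; without the doubted libraries they were -0.67 ± 0.24 and -0.62 ± 0.34. In WT_abx, Per2 was at 5.33, 5.35, 5.56 and 5.39, also below every WT_control library, with a log2 fold of -0.61 ± 0.24 (limma adjusted p = 0.410), and -0.52 ± 0.34 without the doubted libraries. Per1 in abx_and_acetate against abx in WT was at -0.43 ± 0.20 (limma adjusted p = 0.790), and at -0.53 ± 0.25 without the doubted libraries.

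By an unadjusted p under 0.05, 3 of 10 clock genes were counted in WT under abx (background 9.05%), 4 under acetate (9.41%), 3 under abx_and_acetate (14.4%) and 1 in abx_and_acetate against abx (6.12%). By the adjusted threshold the counts were 0, 0, 1 and 0, beside backgrounds of 0%, 0.00672%, 0.726% and 0%. The 3 treatments share the WT_control libraries, whose Per1 and Per2 means, 7.29 ± 0.17 and 6.02 ± 0.17 (SD, n = 6), were the highest of the 8 groups. Immediate early genes, which neurons switch on within minutes of activity, were also high in WT_control, with a mean list score of 0.56. Its males were at 0.10 to 0.33 and its females at 0.79 to 0.99. The other groups had means of -0.31 to 0.28. Single libraries there reached 0.90 (WT_abx 1), 0.45 (KO_acetate 2), 0.40 (KO_abx_and_acetate 1) and 0.31 (KO_control 4), within the WT_control range. In abx_and_acetate against control in WT, 27 of 29 immediate early genes had a negative log2 fold (median -0.65, against 0.00 over all genes) and by limma 0 passed the adjusted threshold, while 13 negative and 1 positive had an unadjusted p under 0.05. Under acetate in WT 28 of 29 were negative (median -0.71), 19 of them with an unadjusted p under 0.05. Of 21 measured genes that respond to glucocorticoids, 18 were negative under abx_and_acetate (median -0.15, 4 with an unadjusted p under 0.05) and 20 under acetate (median -0.31, 5 with an unadjusted p under 0.05). The part of either list in the Per1 and Per2 values was not tested.

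Between genotypes no clock gene passed the adjusted threshold, with or without treatment, in the fit of all libraries. Without treatment, the log2 fold of KO against WT was -0.66 ± 0.18 for Per1 (limma adjusted p = 0.455), -0.71 ± 0.24 for Per2 (0.831), -0.33 ± 0.16 for Cry1 (more than 0.99) and -0.17 ± 0.08 for Cry2 (more than 0.99). Per1 was at 6.72, 6.20, 6.63 and 6.95 in KO_control, all below the lowest WT_control library at 6.96. Per2 was at 4.38, 5.63, 5.26 and 5.99 in KO_control, where the lowest value is that of KO_control 1. Cry1, a repressor whose RNA peaks after that of the Per genes, was at 3.57, 4.01, 3.78 and 4.30 in KO_control and 4.13 to 4.34 in WT_control. The log2 folds of the 6 other members lay between 0.00 and 0.09. These repressors thus account for the 4 of 10 members with an unadjusted p under 0.05, beside a background of 4.0% (0.0202% past the adjusted threshold); without KO_control 1 the count was 1.

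Lists of genes that respond to activity and to glucocorticoids were set beside these values, and 0 of their members passed the adjusted threshold. Of 29 immediate early genes 27 had a negative log2 fold (median -0.92) and 21 were negative with an unadjusted p under 0.05, and of 21 measured glucocorticoid-responsive genes 17 had a positive one (median 0.21), 6 of them with an unadjusted p under 0.05. The glucocorticoid score was 1.24 in KO_control 1 and -0.13 to 0.32 in the other KO_control libraries, against -0.09 to 0.23 in WT_control. The immediate early score was -0.83 and -0.75 in the KO_control males and 0.03 and 0.31 in the females. The part of either in the Per and Cry values was not tested.

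Under treatment no member had an unadjusted p under 0.05 between genotypes. The background by that rule was 3.78% in abx, 5.97% in acetate and 3.70% in abx_and_acetate, and 5.25% over treatments. By the adjusted threshold it was 0.0134%, 0.00672%, 0.0134% and 0.0202%. The members ranged from -0.16 to 0.19 in abx, from -0.17 to 0.16 in acetate and from -0.26 to 0.50 in abx_and_acetate. The sexes are unequal there: WT_abx_and_acetate has 3 males of 4 and KO_abx_and_acetate 1 of 4. Among males alone Per2 was at 1.37 ± 0.38 (limma adjusted p = 0.978), and among females alone Per3 was at -0.74 ± 0.13 (limma adjusted p = 0.0386, background 0.444%), each with a single library in 1 arm.

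The interaction asks whether treatment changed KO and WT differently. The log2 difference of Per2 was 0.88 ± 0.37 for abx and 1.20 ± 0.36 for abx_and_acetate, and that of Per1 was 0.83 ± 0.25 for acetate and 0.80 ± 0.27 for abx_and_acetate. Their limma adjusted p were at least 0.877, and 0 members passed. Without the doubted libraries, Per2 was at 0.79 ± 0.45 for abx and 1.19 ± 0.39 for abx_and_acetate. Per1 was then at 0.91 ± 0.30 for acetate and 0.79 ± 0.28 for abx_and_acetate. By an unadjusted p under 0.05, the counts were 1, 1 and 2 of 10 for abx, acetate and abx_and_acetate, beside backgrounds of 2.47%, 3.65% and 4.53% (0% past the adjusted threshold for each). Between labelled sexes, Per2 had a female-minus-male log2 fold of 0.30 ± 0.13 (limma adjusted p = 0.999), the 1 member with an unadjusted p under 0.05. The background was 3.07%, and 0.0672% past the adjusted threshold. Y-linked genes went against the sex label in some libraries, as given above. Without the doubted libraries the female-minus-male log2 fold of Per2 was 0.33 ± 0.17.

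**Figure D2:**
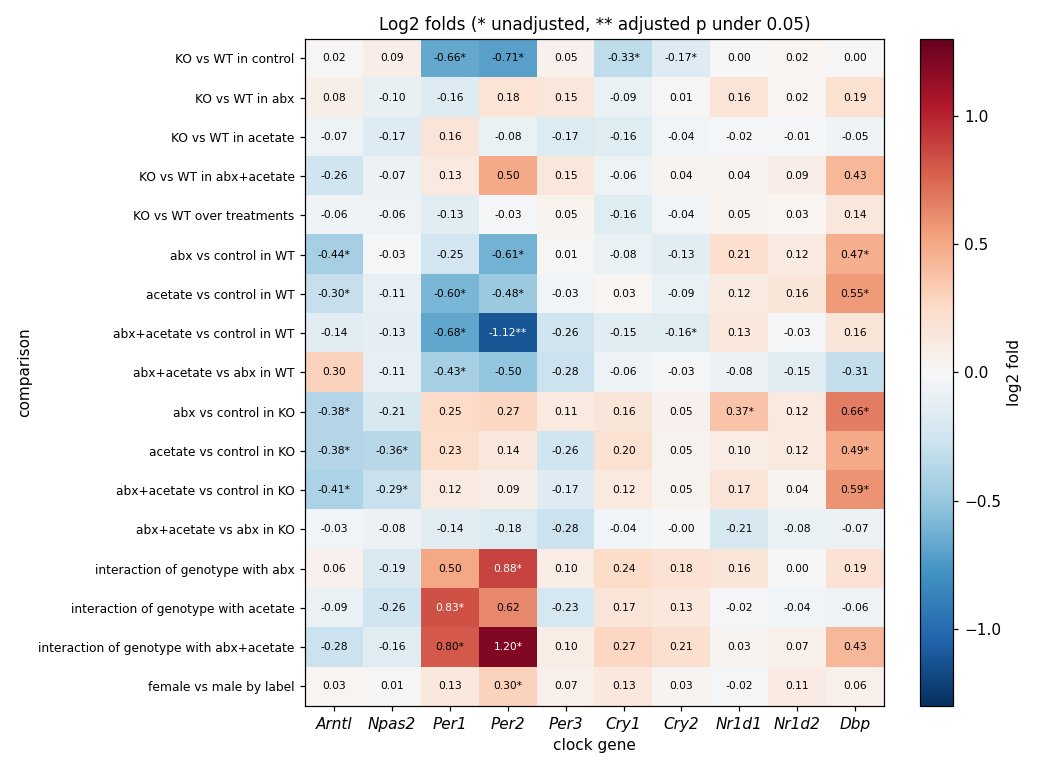
Log2 folds of the 10 clock genes (columns) in the 17 comparisons (rows), from red (higher in the first-named group) to blue (lower); 1 asterisk marks an unadjusted p under 0.05 and 2 an adjusted one. Per2 in abx_and_acetate against control in WT, at -1.12, is the 1 cell with 2 asterisks.

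The clock genes varied more between libraries of 1 group than most genes of like level. The residual SD of Per2 was 0.40 on the log2 scale, larger than that of 97.9% of the 2511 genes whose mean lay within 0.5 of its own. The share was 96.4% for Per3, 95.9% for Dbp and 95.3% for Per1, and 84.1% to 88.8% for Nr1d1, Arntl, Nr1d2 and Cry1. Npas2 (64.0%) and Cry2 (50.3%) were close to the middle of their neighbours. For Dbp the residual SD was 0.31, where the median neighbour had 0.12.

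That variation was shared. With group means removed, 18 of the 45 pairs of members correlated past an adjusted p of 0.05 over the 35 libraries (permutation test within groups, 100000 resamples, Benjamini-Hochberg over 45 pairs), 13 positively and 5 negatively. Arntl and Dbp gave the largest negative value, r = -0.76 (permutation p = 0.00012, adjusted p = 0.0027) and rho = -0.66 (permutation p = 0.00061, adjusted p = 0.00915). Without the 2 libraries farthest from the Arntl median r was -0.71. Within labelled sexes it was -0.43 in males and -0.73 in females. Over the 35 fits that each left out 1 library, r stayed between -0.84 (without KO_acetate 1) and -0.68.

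Of the other genes of the Dbp side, Nr1d2 and Per3 passed against Arntl as reported. Of 44 alternatives described below, the Per3 call was lost in 34 and the Nr1d2 call in 8. Nr1d1 did not pass against Arntl (r = -0.31, adjusted permutation p = 0.105, rho = -0.32, adjusted p = 0.160). Arntl gave r = -0.63 with Nr1d2 (adjusted permutation p = 0.0272; rho = -0.47, adjusted p = 0.0472; -0.62 without the 2 farthest libraries, -0.30 in males, -0.53 in females). With Per3 it gave r = -0.55 (adjusted permutation p = 0.0490; rho = -0.50, adjusted p = 0.0403; -0.54, -0.03 and -0.28 in the same order). Npas2 and Nr1d2 gave r = -0.44 (adjusted permutation p = 0.00972; rho = -0.50, adjusted p = 0.0179; -0.41, -0.50 and -0.77). Cry1 and Arntl gave r = -0.43 and did not pass (adjusted permutation p = 0.118; rho = -0.35, adjusted p = 0.108; -0.12, -0.48 and 0.16).

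Of the 5 largest positive values, 2 joined Per2 to a Cry gene and 2 joined Dbp to Nr1d2 or Per3, and 1 joined Cry1 to Nr1d2. Per2 and Cry2 gave r = 0.76 (permutation p = 1e-05, the smallest that the resamples can give, adjusted p = 0.00045; rho = 0.82, adjusted p = 0.0009), with 0.73 without the 2 libraries farthest out in Per2, 0.86 in males and 0.78 in females. Per2 and Cry1 gave r = 0.76 (adjusted permutation p = 0.0109; rho = 0.60, adjusted p = 0.0179; 0.72, 0.66 and 0.37 in the same order). Nr1d2 and Dbp gave r = 0.68 (adjusted permutation p = 0.00698; rho = 0.58, adjusted p = 0.0179; 0.53, 0.61 and 0.16). Per3 and Dbp gave r = 0.64 (adjusted permutation p = 0.0137; rho = 0.63, adjusted p = 0.00945; 0.44, 0.45 and -0.06). Cry1 and Nr1d2 gave r = 0.64 (adjusted permutation p = 0.0458; rho = 0.45, adjusted p = 0.0546; 0.17, 0.44 and -0.17), a relation that rested on the libraries farthest out in Cry1.

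How many pairs passed depended on WT_abx_and_acetate 4: 8 did without it, and r was then -0.39 for Arntl and Nr1d2, -0.31 for Per3 and Arntl and 0.29 for Cry1 and Nr1d2. Per2 and Cry1 (r = 0.58) and Per3 and Dbp (r = 0.50) also lost the call, each with an adjusted permutation p of 0.0541. Leaving out the libraries with Y-linked genes against the label, 9 pairs passed. Without all 5 doubted libraries 12 did (r of Arntl and Dbp -0.76), and in libraries labelled male alone 2. In those labelled female alone 0 passed, but groups there hold 1 to 3 libraries, which leaves so few rearrangements within groups that this count says nothing about the relations.

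**Figure D3:**
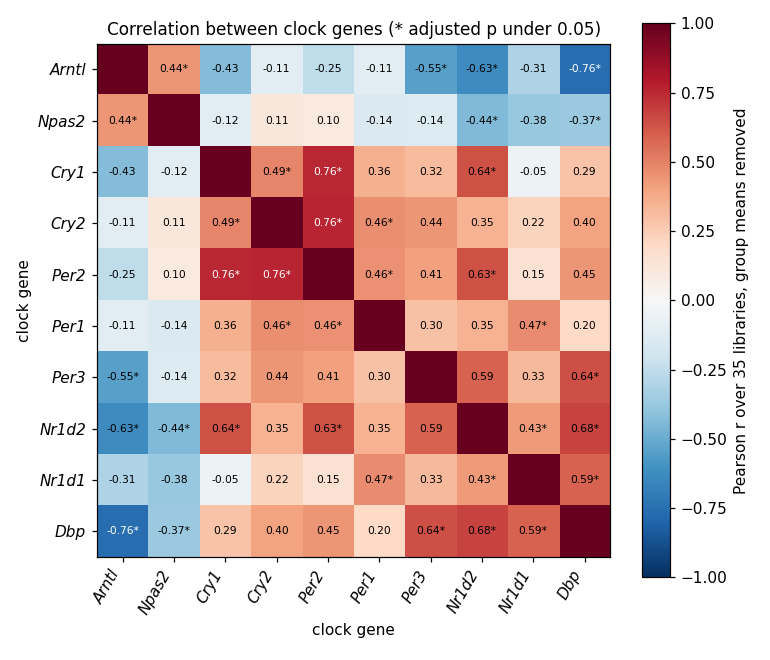
Pearson correlation (colour, red positive and blue negative) between each pair of clock genes over 35 libraries with group means removed; both axes list the genes, and an asterisk marks an adjusted permutation p under 0.05. Arntl and Npas2 are negative against Dbp, Nr1d1 and Nr1d2, and Per2 forms a positive block with Cry1 and Cry2.

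To place each library in 1 number, the clock balance was taken as the mean deviation of Dbp, Nr1d1, Nr1d2 and Per3 from their means over all libraries, minus that of Arntl and Npas2. It is a description without a test. It ran from -0.78 in WT_control 6 to 0.72 in WT_abx_and_acetate 4, with 15 libraries below 0 and 20 above, and its SD within groups was 0.34. All 4 KO_control libraries lay below 0 (-0.56 to -0.09) and all 4 KO_abx_and_acetate libraries above it (0.03 to 0.36). In WT_control the females were at -0.48, -0.66 and -0.78 and the males at -0.35, 0.27 and 0.28. In WT_abx_and_acetate the males were at -0.63, -0.42 and -0.31.

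The other groups lay mostly above 0: 4 of 5 libraries in WT_acetate (-0.34 to 0.29), 4 of 5 in KO_acetate (-0.09 to 0.38), 3 of 4 in WT_abx (-0.11 to 0.65) and 2 of 3 in KO_abx (-0.01 to 0.46). The exceptions include WT_acetate 2 at -0.34, a library doubted on both counts, and KO_acetate 1 at -0.09, the library with striatal markers. WT_abx 4, with choroid plexus and meningeal markers, had the highest value of its group, and WT_abx_and_acetate 4 had a choroid plexus score of 2.33; the part of either tissue in the balance was not tested.

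**Figure D4:**
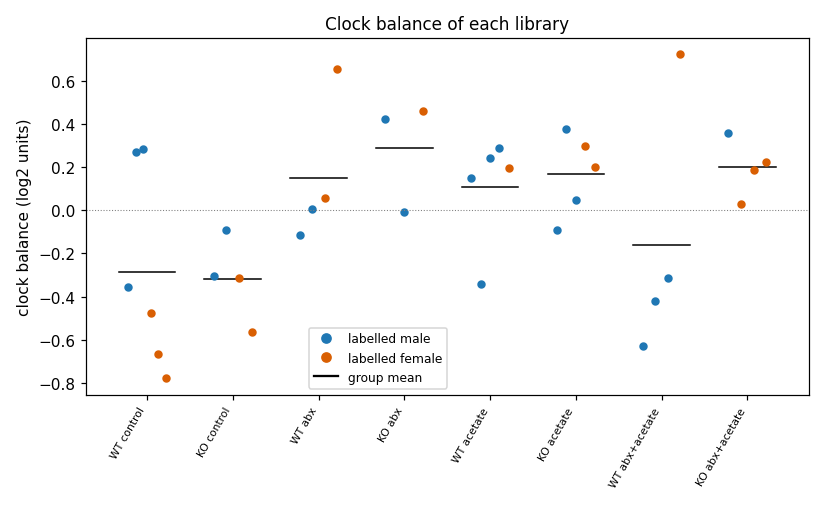
Clock balance of each library (vertical axis, log2 units) in the 8 groups (horizontal axis), 1 point a library, coloured by labelled sex. The libraries run from -0.78 (a WT_control female) to 0.72 (the WT_abx_and_acetate female), and within WT_control the 3 females lie below the 3 males.

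A low balance occurred with opposite levels of Per2 and Cry1, so 1 number did not hold the pattern. The mean deviation of Per2 and Cry1, added after seeing the data, was 0.41 to 0.47 in the WT_control females and -0.86 to -0.52 in the WT_abx_and_acetate males, although both sets had low Dbp and high Arntl. KO_control 1 was at -0.82 and WT_abx_and_acetate 4 at 0.66.

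A principal component analysis of the 10 genes, also added after seeing the data, put 46.4% of their variance on component 1 and 27.1% on component 2, 73.6% together (70.6% with group means removed). In the plane of both components, the loadings can be ordered by their angle from Dbp: Nr1d1 stood at -2.4 degrees, Nr1d2 at 25.3, Per3 at 38.3, Cry1 at 76.7, Cry2 at 92.3, Per2 at 92.6, Per1 at 102.9, Npas2 at 160.9 and Arntl at 176.0. Dbp and the Nr1d genes thus came at 1 end, the Per and Cry genes other than Per3 near a right angle, and the activators opposite. With group means removed Per3 moved to 5.9 degrees and Nr1d1 to -9.8, and the other members to angles from 33.4 (Nr1d2) to 174.2 (Arntl). The log2 values were centred but not scaled, so genes of larger spread weighed more. Per2 had a loading of 0.71 on component 1 and Dbp of -0.65 on component 2. Cry2 (0.14 and 0.07) and Npas2 (-0.02 and 0.20) had small loadings, a length that their angles do not show. An angle here is a direction of covariation and no hour of the day, and whether libraries differed in collection time was not tested.

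**Figure D5:**
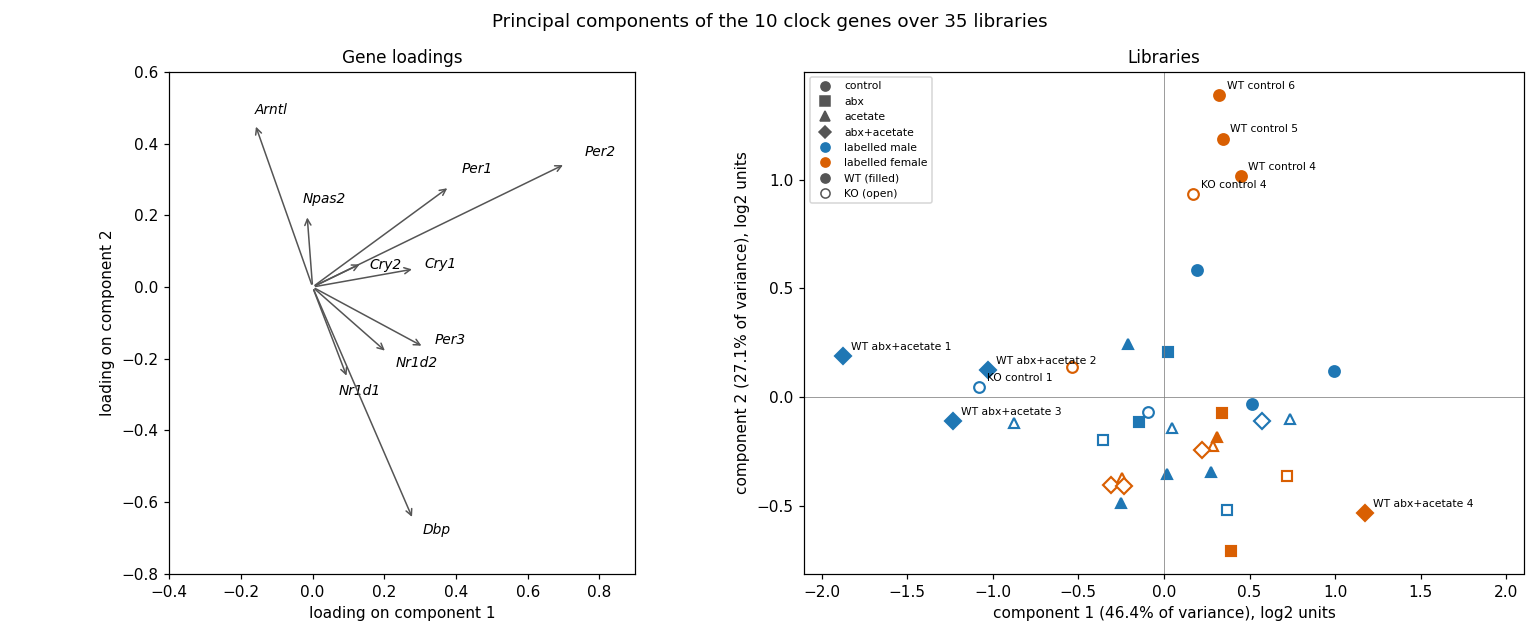
Left, loadings of the 10 clock genes on components 1 and 2 as arrows; right, the scores of the 35 libraries on the same components, with marker shape for treatment, filled for WT and open for KO, and colour for labelled sex. The WT_abx_and_acetate males lie at the left, the WT_control females at the top and WT_abx_and_acetate 4 at the lower right.

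Among all genes with a mean of at least 0, ranked by Pearson r over the 35 libraries with group means removed, those most like Dbp were led by clock genes. Tef (r = 0.80), a transcription factor of the same family, Bhlhe41 (0.80), a repressor at E-boxes, and Ciart (0.77), a repressor of the loop, came before Pola2, Cdc14b, Pcsk4, Ankrd12 and Syne4 (0.72 to 0.76). At the other end stood Nfil3 (-0.79), the repressor that competes with Dbp at D-boxes, then Lingo3 (-0.77) and Arntl, the third lowest of 14018, and Tspan14, Cdkn1a, Golm1, Ddost and Fscn1 (-0.75 to -0.71). Of the other members, Nr1d2 ranked 20, Per3 35, Nr1d1 88, Per2 683, Cry2 1045, Cry1 2326 and Per1 3491 from the top, and Npas2 1245 from the bottom. These are descriptions over libraries of the same tissue and unequal depth, with no test.

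The genes most like Arntl held fewer of the loop: Tspan14 (r = 0.86), Rab15, Cdkn1a, Fscn1, Cx3cl1, Ppp6r1, Dnajb5 and Elmo2 (0.78 to 0.83). The lowest were Bhlhe41 (-0.81), Aaas, Cdc14b, Dbp, Eml2, Rufy1, Rbm3 and Uevld (-0.78 to -0.73). Rbm3, an RNA-binding protein induced by cold, is known to cycle with body temperature.

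Of 27 other genes of the clock listed beside the members, 25 were measured, and 0 passed the adjusted threshold in any of the 17 limma comparisons. The most by an unadjusted p under 0.05 was in acetate against control in KO, with 4 positive and 3 negative and a median over the list of 0.01 (0.00 over all genes), 7 of 25 beside 13.0% of all genes. There Clock, partner of Arntl, was at -0.19 ± 0.06 (limma adjusted p = 0.237), Nampt, a clock-controlled enzyme of NAD synthesis, at 0.21 ± 0.07 (0.271), Cipc, an inhibitor of Clock, at 0.20 ± 0.08 (0.291), Bhlhe41 at 0.44 ± 0.18 (0.325) and Klf9, a glucocorticoid-responsive factor, at -0.22 ± 0.10 (0.347). In KO_control against WT_control the 1 such gene was Bhlhe40, a repressor at E-boxes that activity induces, at -0.65 ± 0.22 (limma adjusted p = 0.830). Under abx in KO, 5 of the 25 were counted, beside 3.30% of all genes: Klf9 (-0.35 ± 0.11), Tef (0.28 ± 0.11), Bhlhe41 (0.48 ± 0.21), Nfil3 (-0.60 ± 0.27) and Clock (-0.16 ± 0.07), each with a limma adjusted p of 0.999. Dbp and Arntl had opposite signs there, so any gene must share the sign of 1 of them. Tef and Bhlhe41 had that of Dbp, and Klf9, Nfil3 and Clock that of Arntl.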

How the data were processed

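Bulk RNA-seq libraries of mPFC punches were made with a strand-marking kit and read as paired ends, per the labels' protocols. The deposited matrix holds log2 CPM in the form that voom gives, log2 of reads plus an offset over a library size; undoing this gave whole reads, within 0.01, for 100% of the entries, and so the depth. The submitters' processing notes name limma. The aligner, counter, strand setting and build were not given in the sources used here. The 35 columns were matched to samples by title, and 0 columns were unused.

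Each gene was tested on the deposited log2 values with limma 3.58.1 in R 4.3.3: 1 fit of 8 group means and labelled sex, a variance trend with the mean, no further filter, 2-sided p-values and Benjamini-Hochberg adjustment over 14870 genes in each of 17 comparisons (threshold 0.05). The fit was tested on simulated data. Pearson and Spearman correlations, after removing group means, used 100000 permutations within groups (numpy 2.4.6, scipy 1.17.1, Python 3.11.15). Positions are from GENCODE vM21 and promoters from RefSeq.

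The named genes are the 10 members, in each comparison with values where the unadjusted p was under 0.05, at most 5 other clock genes a comparison by the smallest p, the 8 genes most and least like Dbp and Arntl, and the 5 largest correlations in each direction. The members, lists, rule and tests were chosen with earlier results of these data known. Alternatives were no sex term, precision weights on recovered reads, quantile normalization, a filter on low genes, another offset, RIN, leaving out doubted or single libraries, and fits within a sex or of the compared groups alone.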

Additional observations from a re-analysis of the deposited data

Results flagged for a closer look

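In each group of 4 to 10 libraries, the highest or lowest value of a clock gene, or of the clock balance, was listed where its gap to the next exceeded Dixon's 95% value. Chance gives this in about 1 in 20 groups, and 7 values were listed among 77 groups. In WT_abx_and_acetate, replicate 4, the 1 female and the shallowest library, was listed for Per3 (6.38 log2 CPM, the others 5.13 to 5.24), Cry1 (4.86, the others 3.71 to 3.90) and Arntl (4.52, the others 5.23 to 5.36). In KO_acetate, Per3 in replicate 1, the library with striatal markers, was at 4.84 and the others at 5.65 to 5.79. In WT_acetate, Cry1 in replicate 3 was at 4.40, the others at 4.15 to 4.22. The clock balance of WT_acetate 2, whose Acr and Y-linked genes went against its labels, was -0.34, the others 0.15 to 0.29. In KO_control, Nr1d2 in replicate 1, the library with the high glucocorticoid score, was at 6.42, the others at 6.69 to 6.72.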

How the results depend on the processing

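Each alternative changed 1 choice, except that 1 left out both kinds of doubted library together; each kind alone kept the Per2 call (limma adjusted p = 0.0374 and 0.0473). Of 676 values of the 29 log2 folds named with an unadjusted p under 0.05, 660 kept their direction and side of the adjusted threshold, 9 lost the call, 5 gained it and 2 reversed. Of 440 values of the 10 named pairs, 79 lost the call and 3 reversed. The rest kept their direction, and their side of the threshold where an adjusted p was computed. No adjusted p was computed without the 2 libraries farthest from a gene's median, where r of Cry1 and Nr1d2 was 0.17. Of 429 counts of members past the threshold, 417 stayed the same. For abx_and_acetate against control in WT, where 1 member passed, the count was 2 with no sex term, 0 without both kinds of doubted library and 4 in females alone, and 0 to 1 when 1 library was left out. In females alone it was 1 for KO against WT in abx_and_acetate, 2 for abx against control in WT and 1 for acetate against control in WT, where 0 passed in the main comparison. Of the pairs, 18 passed as reported, 9 without those with Y-linked genes against the label, 2 in males, 0 in females (where groups of 1 to 3 libraries could hardly give a call) and 8 to 21 when 1 library was left out; it fell to 11 or fewer without WT_control 1, KO_acetate 2, KO_abx 2, KO_abx 3, WT_abx_and_acetate 1, 3 or 4, or KO_abx_and_acetate 1 or 2. The clock balance spanned 1.5, and 2.06 with Dbp and Nr1d1 against Arntl alone. Reversed were the log2 fold of Dbp under abx in WT (-0.074 in males), the abx_and_acetate interaction of Per2 (-0.17 in females), and in females r of Cry1 and Arntl (0.16), Per3 and Dbp (-0.056) and Cry1 and Nr1d2 (-0.17); the cause was not tested. The fits within a sex and without both kinds of doubted library were chosen after seeing the data. No paired analysis was possible because the replicate numbers only follow the order of the records. The lowest value of any member was 3.57 log2 CPM, and the part of depth in the results was not tested. Groups of 3 to 6 libraries limit the precision.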
